A study of Mus musculus with 30 samples.

Results

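The ErbB family comprises the receptor tyrosine kinases Egfr, Erbb2, Erbb3 and Erbb4 and the growth factors that bind them. The genes described here were the 10 rows of the count table with the symbols Egfr, Erbb2, Erbb3, Erbb4, Areg, Ereg, Hbegf, Tgfa, Btc and Nrg1, among 21841 genes in all. They comprise 4 receptors, 5 ligands of the EGF receptor and 1 neuregulin, and were chosen by name and not by their values.

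The libraries came from total RNA of mammary tumours of FVB/N-Tg(MMTV-PyVT)634Mul/J animals, with the genotype labelled WT. In this model the mouse mammary tumour virus promoter drives polyoma middle T antigen in the mammary epithelium, and every group carried the transgene, vehicle included. There were 6 groups of 5 libraries, collected after 72 h per the labels, with all drugs given intraperitoneally. The groups were vehicle, 5-fluorouracil (5-FU, 40 mg/kg), gemcitabine (64 mg/kg), KCL-HO-1i (25 µmol/kg daily), and KCL-HO-1i with gemcitabine or with 5-FU at the same doses, named with a slash. KCL-HO-1i is an inhibitor of HO-1, the enzyme that degrades heme, and 5-FU and gemcitabine are antimetabolite chemotherapies that disturb DNA synthesis. The study's text gives an earlier collection and a lower gemcitabine dose for tumours profiled this way, and the labels were followed here. The labels give no age. They give each library its own code, called the mouse code here, but do not state what it stands for. The study's text describes cohorts of 5 mice. Total counts ran from 10067577 to 13622264 per library, and 13663 genes passed the filter on low counts. The luminal epithelial genes Krt8 and Epcam were abundant in every library. Krt8 ran from 567 to 1612 CPM (read counts scaled to a common library size by TMM) and Epcam from 590 to 1502 CPM. Esr1, the oestrogen receptor gene and also a luminal marker here, ran from 5.65 to 34.7 CPM. Pgr, the progesterone receptor gene, ran from 0 to 4.48 CPM. KCL-HO-1i replicate 4 and KCL-HO-1i/gemcitabine replicate 2 stood apart by their adipocyte genes (a summed level of 6837 and 7480 CPM, against a vehicle range of 40.9 to 385 CPM) and by skeletal muscle genes (4153 and 12371 CPM, against 1.58 to 39.2 CPM in vehicle).

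As background, ErbB receptors signal as dimers once a ligand has opened the extracellular domain, and feed the Ras and mitogen-activated protein kinase cascade and the phosphoinositide kinase pathway. Erbb2 has no known ligand and acts as the preferred partner of the others, Erbb3 has little kinase activity of its own, and the ligands are made as membrane proteins that ADAM proteases release. In the mammary gland amphiregulin is the ligand of ductal growth downstream of the oestrogen receptor, neuregulin and Erbb4 act in lobuloalveolar development, and polyoma middle T antigen recruits Src, Shc and phosphoinositide kinase without an ErbB receptor.

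The question for this family was whether any receptor or ligand transcript differed between treatments, and how far single tumours departed from their group. Of the 10 genes, 9 passed the filter and Ereg did not. In the edgeR quasi-likelihood fit over all 30 libraries, 0 of the 9 tested members passed an adjusted p of 0.05 in any of the comparisons. The background was also low, with 0.00% of the 13663 tested genes past that threshold in each of the 7 comparisons between groups and in both interactions, 0.0586% in the average KCL-HO-1i effect over its 3 backgrounds, and 0.651% in the test of any difference among the 6 groups. The members with an unadjusted p under 0.05 in a group comparison were a lower Tgfa and Erbb3 with KCL-HO-1i/gemcitabine, a higher Hbegf and Erbb2 with KCL-HO-1i/5-FU than with 5-FU, the last with 1 tumour far above the other 29 libraries. None of these passed adjustment over all genes in that fit.

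**Figure D1:**
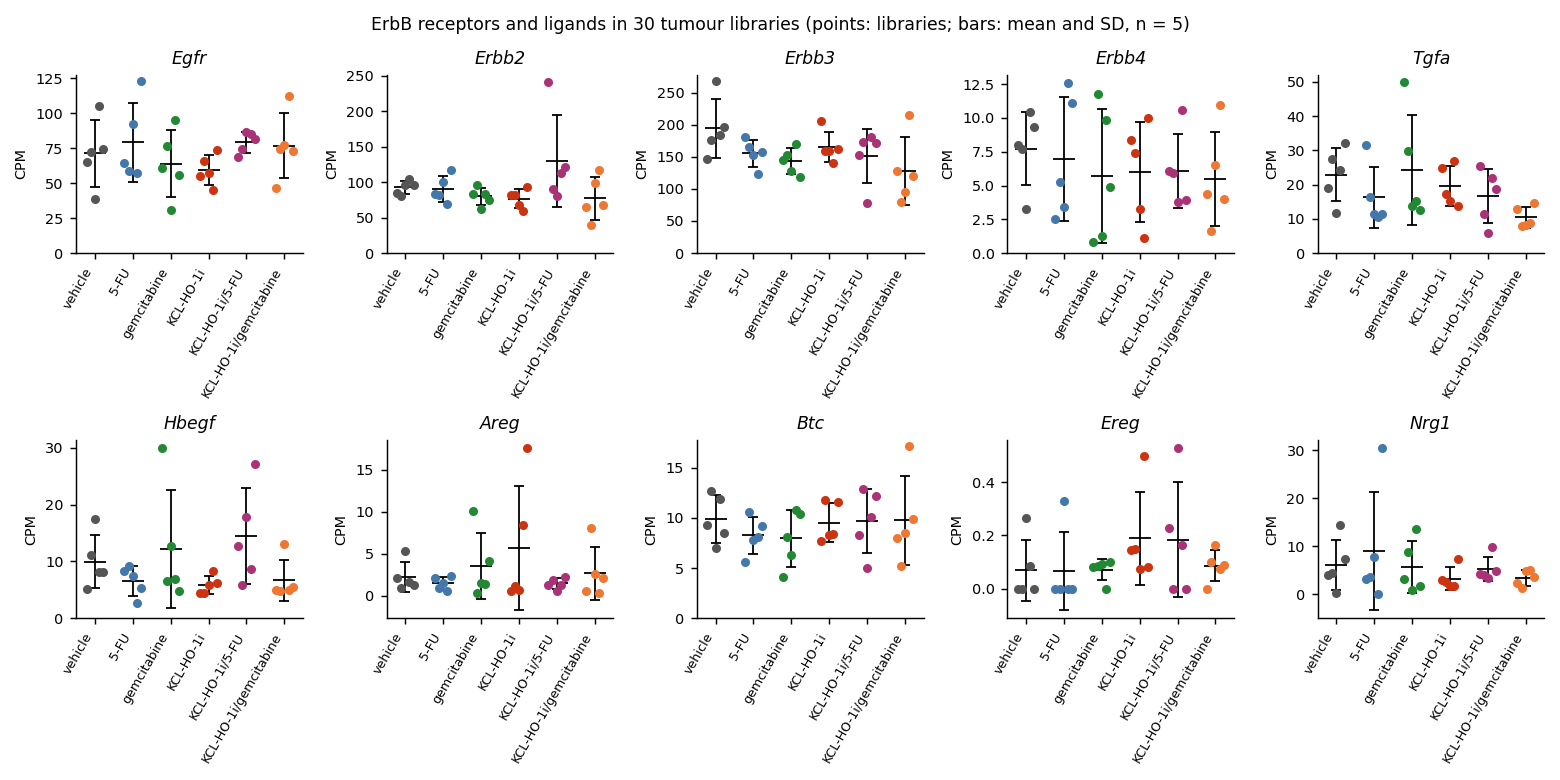
Level of each of the 10 genes (y axis, CPM, read counts scaled by TMM) in the 5 libraries of each of the 6 treatment groups (x axis); points are libraries and bars are the mean and SD. Groups overlap for every gene, and 1 KCL-HO-1i/5-FU library stands at 241 CPM for Erbb2.

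The loci were taken from RefSeq, and the strands from the GENCODE annotation of GRCm38, the assembly that the submitters' processing notes call mm10. Egfr (chr11:16752203-16913907, plus strand) and Erbb2 (chr11:98412484-98437716, plus strand) share a chromosome, and their starts lie 81.7 Mb apart. Erbb3 lies at chr10:128567523-128589635 on the minus strand and Erbb4 at chr1:68031884-69108576 on the minus strand. The ligand genes Ereg (chr5:91074617-91093649, plus strand), Areg (chr5:91139599-91148432, plus strand) and Btc (chr5:91357261-91402994, minus strand) form a cluster, with the start of Areg 64.98 kb from that of Ereg and 263 kb from that of Btc. Tgfa lies at chr6:86195038-86275744 on the plus strand and Nrg1 at chr8:31807452-32891609 on the minus strand.

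Promoter sequences are shown for the receptors that share a chromosome, Egfr and Erbb2, and for Areg, the most variable ligand of the EGF receptor by its SD of log2 CPM over the libraries. The sequences are the 250 bases before each gene's start in RefSeq on GRCm38.p6, written 5′ to 3′ on the gene's strand, and 6 of the 10 genes had an entry. Capitals mark matches on either strand to the GC box (GGGCGG), the TATA box (TATAAA), the cyclic AMP response element (CRE, TGACGTCA) and the CCAAT box.
Egfr, chr11:16751953-16752202, plus strand: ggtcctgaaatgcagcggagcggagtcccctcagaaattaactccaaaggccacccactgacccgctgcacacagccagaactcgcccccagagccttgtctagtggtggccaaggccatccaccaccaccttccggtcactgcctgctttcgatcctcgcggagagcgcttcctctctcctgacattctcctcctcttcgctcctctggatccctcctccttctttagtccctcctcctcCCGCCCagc
Erbb2, chr11:98412234-98412483, plus strand: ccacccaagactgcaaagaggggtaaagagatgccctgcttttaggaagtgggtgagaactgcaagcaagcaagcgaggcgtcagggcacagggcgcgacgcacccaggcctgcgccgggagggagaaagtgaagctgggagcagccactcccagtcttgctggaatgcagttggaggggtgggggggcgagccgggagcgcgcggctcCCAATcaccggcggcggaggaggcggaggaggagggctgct
Areg, chr5:91139349-91139598, plus strand: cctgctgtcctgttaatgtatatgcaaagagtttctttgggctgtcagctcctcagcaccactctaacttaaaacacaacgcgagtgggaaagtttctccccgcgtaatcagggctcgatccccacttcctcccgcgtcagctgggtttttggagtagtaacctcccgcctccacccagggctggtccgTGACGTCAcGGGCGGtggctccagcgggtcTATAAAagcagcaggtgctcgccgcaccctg
Egfr held 1 GC box, 9 bases before the start and read on the minus strand, and Erbb2 held 1 CCAAT box, 41 bases before the start. Areg held a CRE 61 bases, a GC box 52 bases and a TATA box 31 bases before the start, and the motifs do not overlap. Of 32851 promoters of that length, 32.7% held a GC box, 12.4% a TATA box, 1.55% a CRE and 33.9% a CCAAT box. The GC content was 60.8% for Egfr, 66.0% for Erbb2 and 57.2% for Areg, against a median of 52.4% over all promoters.

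Erbb3, Erbb2 and Egfr were the most abundant members on a scale that allows genes to be compared, the CPM per kilobase of the longest annotated coding transcript. Erbb3 had the highest level, with a median over 30 libraries of 26.2 CPM per kb, followed by Erbb2 at 16.6 and Egfr at 7.14 CPM per kb. Among the ligands Tgfa (3.36 CPM per kb), Hbegf (3.02 CPM per kb) and Btc (2.95 CPM per kb) came next, then Areg (1.25 CPM per kb) and Nrg1 (0.703 CPM per kb). Erbb4, the neuregulin receptor of the differentiating gland, had 0.50 CPM per kb and Ereg 0.0201 CPM per kb. Within libraries Erbb3 exceeded Erbb2 in 27 of 30 and Erbb2 exceeded Egfr in 30 of 30, while Tgfa exceeded Hbegf in 20 and Hbegf exceeded Btc in 15 of 30. The ranges over libraries overlapped for every neighbouring pair in this order, and Hbegf and Btc could not be ordered.

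Egfr ran from 31.1 to 123 CPM over the 30 libraries, at between 340 and 1663 reads. Its mean was 71.4 ± 23.8 CPM (SD, n = 5) with vehicle, 79.3 ± 28.4 with 5-FU, 63.9 ± 23.9 with gemcitabine, 59.5 ± 10.98 with KCL-HO-1i, 79.2 ± 7.69 with KCL-HO-1i/5-FU and 76.9 ± 23.4 with KCL-HO-1i/gemcitabine. The log2 fold changes of Egfr in the 7 group comparisons lay between -0.26 and 0.27, each with an SE of 0.26, and the groups overlapped throughout.

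Erbb2 stood at 85.0, 81.0, 96.1, 104 and 95.3 CPM in vehicle replicates 1 to 5, a mean of 92.4 ± 9.35 CPM (SD, n = 5). With 5-FU its levels were 83.6, 82.0, 99.7, 69.6 and 117 CPM, and with KCL-HO-1i/5-FU they were 241, 89.9, 80.1, 113 and 121 CPM. KCL-HO-1i/5-FU replicate 1 was 1.99 times the next highest of all 30 libraries and 2.89 times their median, while the other 4 libraries of its group averaged 101 CPM and lay within or just above the 5-FU range. Against 5-FU, Erbb2 was 0.51 higher on the log2 scale with KCL-HO-1i/5-FU (SE 0.25, adjusted p = 0.434 by edgeR), and without replicate 1 of that group the difference was 0.16 (adjusted p = 0.801 by edgeR). In this comparison 11.4% of all tested genes had an unadjusted p under 0.05, beside 2 of the 9 members. The interaction of KCL-HO-1i and 5-FU was 0.79 for Erbb2 (SE 0.35, adjusted p = 0.538 by edgeR), where 8.53% of genes had an unadjusted p under 0.05.

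The single high Erbb2 tumour was set against the neighbours of Erbb2 on the chromosome. In KCL-HO-1i/5-FU replicate 1 Erbb2 deviated by 1.53 on the log2 scale from its median over the 30 libraries. The 10 tested genes on each side of it had a median deviation of 0.82 there, the highest of the 30 libraries, with 5-FU replicate 5 next at 0.52. Of these 20 neighbours, 13 had their highest level of all libraries in that tumour. They included Grb7, an adaptor that binds Erbb2 (1.04, at 62.9 CPM against a median of 30.5), and Mien1 (1.21, at 318 against 138 CPM). Also among them were Pgap3 (0.91), Stard3 (0.74), the Mediator subunit Med1 (0.80) and the kinase gene Cdk12 (0.69). The neighbours not at their highest there were Nr1d1 (0.85), Ormdl3 (0.67), Tcap (0.64), Stac2 (0.55), Csf3 (0.18), Ppp1r1b (0.14) and Ikzf3 (-0.34). The share of all tested genes at their highest in that tumour is not given here. The tested genes from 1 to 2 Mb after the start of Erbb2 had a median deviation of 1.62 over 11 genes and those from 2 to 3 Mb one of 0.81 over 37 genes. Of the 11 genes 7 were keratin genes, some of them markers of basal cells, and without these the median was 1.47 over 4 genes. The summed level of basal markers in that tumour, 1389 CPM, lay above the vehicle range of 113 to 418 CPM, and its part in these deviations was not tested. From 3 to 4 Mb the median was 0.03, and from 2 to 1 Mb before Erbb2 it was -0.04, so the raised stretch had an end on both sides.

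A further stretch of the same chromosome, from 7 to 18 Mb beyond Erbb2, was raised in several libraries. Over its 113 tested genes, replicates 4, 5 and 1 of KCL-HO-1i/5-FU had median deviations of 0.98, 0.93 and 0.91, followed by gemcitabine replicate 4 with 0.64 and vehicle replicate 4 with 0.44. From 18 Mb to the end of the chromosome, over 99 genes, KCL-HO-1i/5-FU replicate 5 had the highest median at 0.98, then gemcitabine replicate 4 at 0.75 and vehicle replicate 4 at 0.28. In the 3 Mb after the start of Erbb2, over 71 genes, KCL-HO-1i/5-FU replicate 1 stood apart with a median of 1.04, or 0.86 without keratin genes, and the next library, 5-FU replicate 5, had 0.17. Egfr, on the same chromosome, was not raised in that tumour, where it deviated by -0.09 and the median deviation of its 20 neighbours was -0.13. The limits of the stretches at and beyond Erbb2 match where the medians of these same libraries rise and fall. The order of libraries within them is thus a description and not a test. Whether the DNA copy number of these stretches differed was not tested, since only RNA was measured. The plot of genes around Erbb2 shows these medians.

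**Figure D2:**
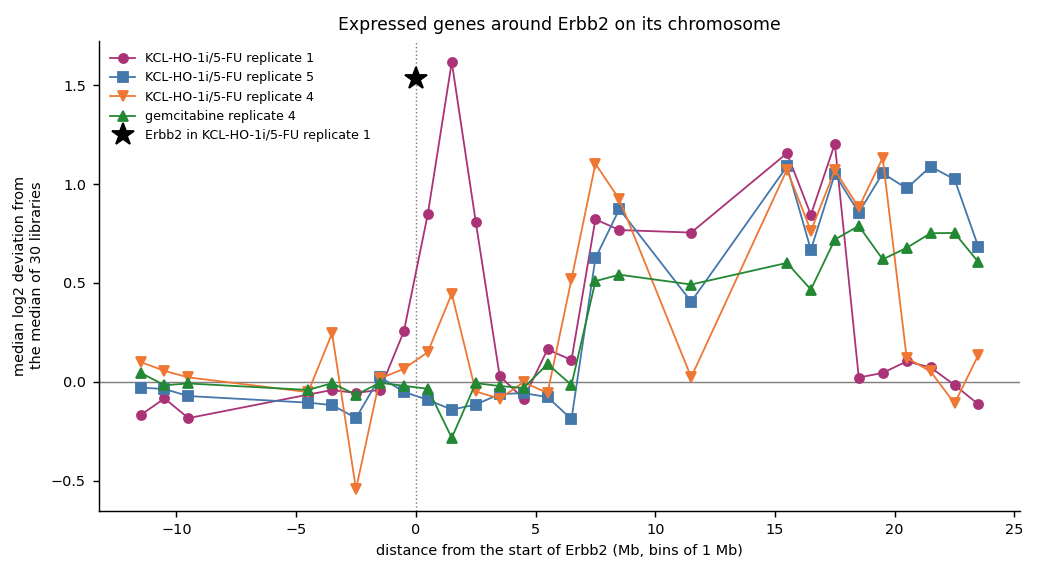
Median log2 deviation of tested genes from their median over 30 libraries (y axis) in 1 Mb bins by distance from the start of Erbb2 (x axis, Mb), for 4 libraries; the star is Erbb2 itself in KCL-HO-1i/5-FU replicate 1. That library rises to 1.62 in the bin from 1 to 2 Mb and returns to 0.03 from 3 to 4 Mb, and all 4 libraries have medians between 0.51 and 1.10 from 7 to 8 Mb.

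Erbb3, the partner that couples the dimer to phosphoinositide kinase, had 146, 177, 268, 183 and 197 CPM in vehicle replicates 1 to 5. With KCL-HO-1i/gemcitabine it had 128, 78.9, 95.6, 215 and 119 CPM. In that group 4 of the 5 libraries lay below every vehicle library, and replicate 4, at 215 CPM, lay above all vehicle libraries but 1, so the groups overlapped. The log2 fold change was -0.61 (SE 0.22, adjusted p = 0.126 by edgeR), and it ran from -0.88 to -0.48 when each library in turn was left out. With gemcitabine alone Erbb3 was -0.44 from vehicle (SE 0.22, adjusted p = 0.941 by edgeR), and KCL-HO-1i/gemcitabine differed from gemcitabine by -0.16 (SE 0.22). Its mean was 194 ± 45.5 CPM (SD, n = 5) with vehicle, 156 ± 20.9 with 5-FU, 143 ± 20.2 with gemcitabine, 165 ± 23.9 with KCL-HO-1i and 151 ± 42.6 with KCL-HO-1i/5-FU, and the lowest library of all was KCL-HO-1i/5-FU replicate 3 at 77.3 CPM.

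Tgfa, the transforming growth factor alpha ligand of Egfr, was the ligand with an unadjusted p under 0.05 in 2 of the group comparisons. In vehicle replicates 1 to 5 it had 18.9, 27.5, 11.8, 24.3 and 32.1 CPM, and with gemcitabine 49.97, 29.8, 13.6, 15.1 and 12.7 CPM. With KCL-HO-1i/gemcitabine it had 12.98, 7.95, 8.10, 8.74 and 14.6 CPM. The KCL-HO-1i/gemcitabine libraries were the low ones, but replicates 1 and 5 overlapped the lowest vehicle and gemcitabine libraries. Against vehicle the log2 fold change was -1.13 (SE 0.40, adjusted p = 0.121 by edgeR), and against gemcitabine it was -1.21 (SE 0.40, adjusted p = 0.282 by edgeR). Without gemcitabine replicate 1, at 49.97 CPM, the latter was -0.79 (adjusted p = 0.464 by edgeR). Erbb3 and Tgfa made 2 of the 9 members with an unadjusted p under 0.05 in KCL-HO-1i/gemcitabine against vehicle, where 19.8% of all tested genes had one, and Tgfa 1 of the 9 against gemcitabine, where 13.5% had. These comparisons share the KCL-HO-1i/gemcitabine libraries. The mean of Tgfa was 22.9 ± 7.86 CPM (SD, n = 5) with vehicle and 10.5 ± 3.09 with KCL-HO-1i/gemcitabine, while with KCL-HO-1i alone it was 19.5 ± 5.83 and with KCL-HO-1i/5-FU 16.7 ± 7.94. Averaged over the 3 backgrounds the KCL-HO-1i effect on Tgfa was -0.47 (SE 0.23, unadjusted p = 0.0516, adjusted p = 0.221 by edgeR). In that fit 0 of the 9 members had an unadjusted p under 0.05, against 23.0% of all genes. Tgfa had one with DESeq2, limma-voom, no filter on low counts or the replicate block, and 0 members passed adjustment in these runs.

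Other cell types moved with KCL-HO-1i/gemcitabine beside Erbb3 and Tgfa. All 7 adipocyte genes and all 7 skeletal muscle genes had an unadjusted p under 0.05 in the higher direction against vehicle in edgeR, as did 6 of 7 macrophage genes, and none of these genes was at 0 in either group. So were 7 of 8 fibroblast genes, 3 of 7 basal, 3 of 5 endothelial and 1 of 4 tested neutrophil genes, and 0 of 2 tested epidermal genes, whose list held the only marker at 0, Flg2. With KCL-HO-1i alone, 7 of 7 muscle, 6 of 7 adipocyte, 5 of 7 macrophage and 4 of 8 fibroblast genes were also higher at that threshold. So were 1 of 7 basal and 1 of 5 endothelial genes. There Erbb3 was -0.23 (SE 0.22) and Tgfa -0.23 (SE 0.40) from vehicle. None of the marker genes passed adjustment in either comparison. Of all tested genes, 19.8% had an unadjusted p under 0.05 by edgeR with KCL-HO-1i/gemcitabine against vehicle, and 59.4% of those were higher. With KCL-HO-1i alone the share was 9.43%, and 78% of those were higher. The summed adipocyte level ran from 19.6 to 7480 CPM with KCL-HO-1i/gemcitabine, the muscle level from 1.11 to 12371 CPM and the macrophage level from 305 to 589 CPM, against 61.2 to 248 CPM of macrophage genes with vehicle. The fibroblast level ran from 327 to 12086 CPM against 106.5 to 902 CPM with vehicle, and the basal level from 121 to 1083 CPM against 113 to 418 CPM. Of the 8 luminal epithelial genes 1 was higher and 1 lower with KCL-HO-1i/gemcitabine at an unadjusted p under 0.05 by edgeR. Their sum ran from 2625 to 5373 CPM there, against 4623 to 5680 CPM with vehicle. Without the 2 libraries rich in adipocyte and muscle RNA, an alternative chosen after seeing the data, Erbb3 was -0.47 from vehicle (adjusted p = 0.336) and Tgfa -1.06 (adjusted p = 0.283, both by edgeR). In bulk tissue, fewer cells of a type and less RNA per cell cannot be told apart, and the part of these cell types in the Erbb3 and Tgfa values was not tested.

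Hbegf, the heparin-binding ligand of Egfr and Erbb4, had 12.7, 5.93, 17.9, 8.64 and 27.1 CPM in KCL-HO-1i/5-FU replicates 1 to 5. With 5-FU it had 8.36, 9.17, 7.46, 2.61 and 5.26 CPM. The libraries at 12.7, 17.9 and 27.1 CPM lay above every 5-FU library and the other 2 within their range. The log2 fold change was 1.14 (SE 0.47, adjusted p = 0.367 by edgeR). Without KCL-HO-1i/5-FU replicate 5 it was 0.78 (adjusted p = 0.552 by edgeR). Vehicle libraries ran from 5.17 to 17.4 CPM, and KCL-HO-1i/5-FU was 0.54 above them (SE 0.46). The interaction of KCL-HO-1i and 5-FU was 1.91 for Hbegf (SE 0.66, adjusted p = 0.457 by edgeR), made of a lower mean in both single treatments (6.57 ± 2.65 CPM with 5-FU and 5.82 ± 1.59 CPM with KCL-HO-1i, against 9.96 ± 4.66 CPM with vehicle) and a higher one in the combination (14.5 ± 8.38 CPM, SD, n = 5). The highest level of all, 30.0 CPM, was in gemcitabine replicate 1, the library with the highest Tgfa. In the test of any difference among the 6 groups, Erbb2 (adjusted p = 0.238) and Hbegf (adjusted p = 0.245, both by edgeR) were the members with an unadjusted p under 0.05, where 18.7% of all genes had one. Without KCL-HO-1i/5-FU replicate 1, or without replicate 5 of that group, 0 members had one.

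Areg, amphiregulin, was low in most tumours and high in a few. Its median was 1.52 CPM and its range 0.301 to 17.6 CPM, at 4 to 213 reads. The high libraries were KCL-HO-1i replicates 5 (17.6 CPM) and 4 (8.35 CPM), gemcitabine replicate 1 (10.04 CPM) and KCL-HO-1i/gemcitabine replicate 2 (8.05 CPM), and each of these groups also held a library under 1 CPM. In that order Areg deviated by 3.40, 2.34, 2.60 and 2.29 on the log2 scale from its median over the 30 libraries. The median deviations of its 20 neighbours on the chromosome were -0.15, 0.10, 0.05 and 0.14. The KCL-HO-1i mean of 5.69 ± 7.40 CPM (SD, n = 5) gave a log2 fold change of 1.35 against vehicle (SE 0.89, adjusted p = 0.719 by edgeR). Btc, betacellulin, varied least among the ligands, from 4.08 to 17.1 CPM, with group means between 7.94 and 9.88 CPM and log2 fold changes between -0.32 and 0.30 (SE 0.29). Ereg, epiregulin, had 0 to 6 reads per library and 39 reads in all, with 0 in 11 of the 30 libraries. The upper limit that a count of 0 allows, 3 reads, was 0.215 to 0.302 CPM, so a difference in Ereg was not detectable at this depth.

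Nrg1, the neuregulin that binds Erbb3 and Erbb4, was the member with the largest spread, with an SD within groups of 1.603 on the log2 CPM scale against 0.36 for Erbb3. It ran from 0 reads in 5-FU replicate 4 to 30.5 CPM in 5-FU replicate 5, both in the same treatment group. Its log2 fold changes lay between -0.90 and 0.57 with an SE of 0.88 to 0.89, each of about 1 SE or less. Erbb4 ran from 0.816 CPM (10 reads) to 12.6 CPM, with group means between 5.49 and 7.73 CPM and log2 fold changes between -0.49 and -0.06 (SE 0.62). For Erbb4 the spread within the gemcitabine group alone, 0.816 to 11.8 CPM, took in all vehicle libraries.

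**Figure D3:**
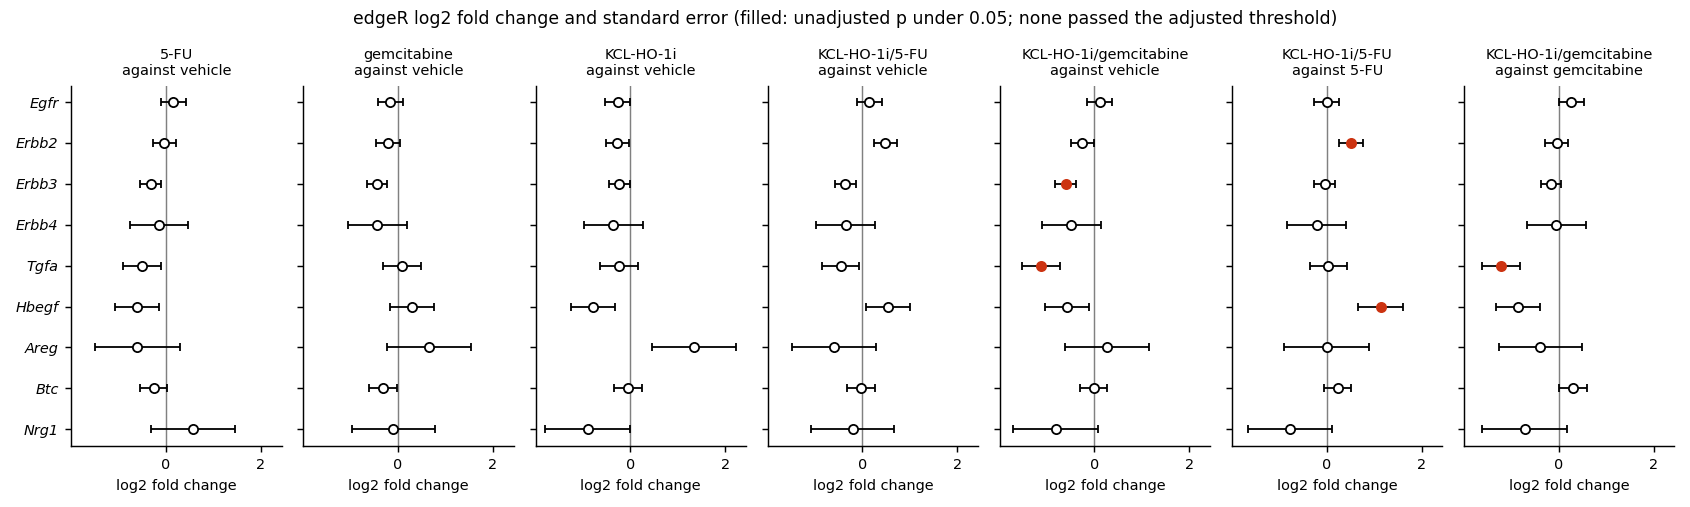
Log2 fold change of the 9 tested members with its SE (x axis) in 7 comparisons between groups, from the edgeR fit on all genes; filled points have an unadjusted p under 0.05. The filled points are Erbb3 and Tgfa in KCL-HO-1i/gemcitabine against vehicle, Erbb2 and Hbegf in KCL-HO-1i/5-FU against 5-FU, and Tgfa in KCL-HO-1i/gemcitabine against gemcitabine.

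No member had an unadjusted p under 0.05 in the remaining comparisons with vehicle. The share of all genes that did was 3.89% for 5-FU, 3.83% for gemcitabine, 9.43% for KCL-HO-1i and 17.6% for KCL-HO-1i/5-FU, and for the interaction of KCL-HO-1i and gemcitabine it was 1.34%. The median log2 fold change of the 4 receptors was -0.09 with 5-FU, -0.32 with gemcitabine, -0.27 with KCL-HO-1i, -0.10 with KCL-HO-1i/5-FU and -0.37 with KCL-HO-1i/gemcitabine, all against the same vehicle libraries. The medians over all tested genes lay between -0.01 and 0.03. No member separated 2 groups without overlap in any of the 7 group comparisons, where between 0.359% and 4.05% of all genes did.

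Although treatment groups did not separate them, some receptor and ligand levels varied together from tumour to tumour. Of the 36 pairs of tested members, 9 passed an adjusted p of 0.05 for Spearman's rho over the 30 libraries, in 100000-resample permutation tests, and all 9 were positive. Against the other 13662 tested genes, Nrg1 ranked 4 by rho for Egfr and 27 for Erbb2, whereas weaker pairs stood among many genes, with Erbb3 ranking 763 and Erbb4 1259 for Erbb2, and Erbb4 1085 for Egfr. The strongest was Egfr with Nrg1, with rho = 0.84 (permutation p = 1e-05, the smallest they can give, adjusted p = 0.00036) and Pearson's r = 0.75 (permutation p = 3e-05, adjusted p = 0.00108). For this pair r was 0.81 without the 2 libraries farthest from the median and 0.78 after subtraction of group means. Nrg1 was also related to Erbb2 (rho = 0.73, permutation p = 3e-05, adjusted p = 0.00054; r = 0.45, adjusted p = 0.0608; r = 0.57 without the 2 farthest libraries). Its relation to Erbb4, a receptor it binds, had rho = 0.59 (permutation p = 0.0008, adjusted p = 0.0072) and r = 0.38 (adjusted p = 0.109), with r = 0.69 without the 2 farthest libraries. Erbb3, the other receptor of Nrg1, had rho = 0.35 with it (permutation p = 0.0613, adjusted p = 0.138) and r = 0.17 (adjusted p = 0.52).

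Among receptors Egfr and Erbb2 had rho = 0.61 (permutation p = 0.0004, adjusted p = 0.0048) and r = 0.41 (adjusted p = 0.0852), or r = 0.71 without the 2 farthest libraries. Erbb2 and Erbb3, a dimer pair, had rho = 0.52 (permutation adjusted p = 0.0232) and r = 0.45 (adjusted p = 0.0608), which fell to 0.30 without the 2 farthest libraries. Erbb4 and Btc had rho = 0.51 (permutation adjusted p = 0.026) and r = 0.64 (adjusted p = 0.00252). The others past the threshold by rho were Btc with Nrg1 (0.49), Egfr with Erbb4 (0.48) and Erbb2 with Erbb4 (0.46). By Pearson's r 3 of the 36 pairs passed, all of them among the 9. The clustered ligand genes Areg and Btc showed no detectable relation (rho = -0.06, permutation p = 0.75; r = -0.24), nor did any pair with Areg, Hbegf or Tgfa pass. The lowest value was that of Areg with Erbb4, with rho = -0.43 (permutation p = 0.0198, adjusted p = 0.0713) and r = -0.48 (adjusted p = 0.0608), and Hbegf with Erbb4 had rho = -0.39 (permutation p = 0.0354, adjusted p = 0.0962).

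**Figure D4:**
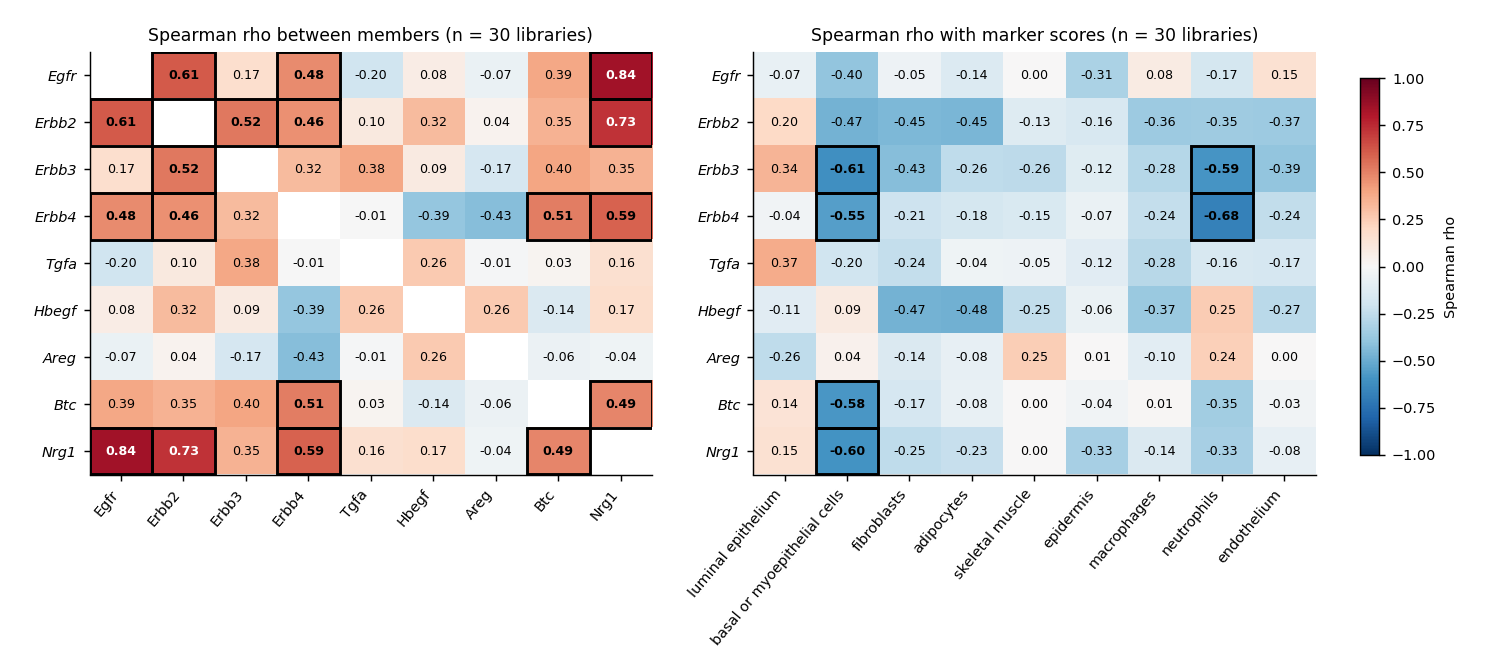
Spearman's rho over 30 libraries between the 9 tested members (left) and between members and the mean log2 CPM of 9 marker lists (right); boxes mark an adjusted permutation p under 0.05. The 9 boxed pairs on the left, up to 0.84, all lie among Egfr, Erbb2, Erbb3, Erbb4, Btc and Nrg1, and the boxes on the right are negative relations to basal and neutrophil scores.

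The levels of cell type markers moved with several members across tumours. Of 81 relations between a member and a marker score, 6 passed an adjusted p of 0.05 by Spearman's rho and all were negative. Basal or myoepithelial genes were lower where Erbb3 was higher (rho = -0.61, permutation adjusted p = 0.0142; r = -0.62, adjusted p = 0.00864), and likewise for Nrg1 (rho = -0.60, permutation adjusted p = 0.0156; r = -0.43, adjusted p = 0.0989), Btc (rho = -0.58, permutation adjusted p = 0.0168; r = -0.55, adjusted p = 0.0183) and Erbb4 (rho = -0.55, permutation adjusted p = 0.0262; r = -0.46, adjusted p = 0.0695). Without the 2 libraries farthest from the median score these were r = -0.46 for Erbb3, -0.56 for Nrg1, -0.55 for Btc and -0.57 for Erbb4. The neutrophil score was lower where Erbb4 (rho = -0.68, permutation adjusted p = 0.00891; r = -0.61, or -0.59 without the 2 farthest) and Erbb3 (rho = -0.59, permutation adjusted p = 0.0156; r = -0.60, or -0.50 without them) were higher. By Pearson's r 10 of the 81 passed, 4 of them among these 6. The rest passed by r but not by rho. Erbb3 was higher with the luminal score (r = 0.57, permutation adjusted p = 0.0183). It was lower with the fibroblast (r = -0.64, adjusted p = 0.00864) and endothelial scores (r = -0.61, adjusted p = 0.00891). Egfr was lower with the epidermal score (r = -0.60, adjusted p = 0.00891) and Erbb2 with the adipocyte score (r = -0.50, adjusted p = 0.0355). Tgfa was higher with the luminal score by r (0.49, permutation adjusted p = 0.0439) but not by rho (0.37, adjusted p = 0.23). For Erbb3, r without the 2 farthest libraries was 0.44 with the luminal, -0.43 with the fibroblast and -0.27 with the endothelial score. Likewise Egfr had -0.36 with the epidermal score, Erbb2 -0.29 with the adipocyte score and Tgfa 0.33 with the luminal score. The epidermal score held only the 2 tested genes of the 6 listed. The low Erbb3 level of KCL-HO-1i/5-FU replicate 3 stood beside a luminal score of 7.63 and a basal score of 5.93 on the log2 CPM scale, where vehicle libraries had 8.21 to 8.49 and 3.58 to 4.25, and the part of cell composition in it was not tested.

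As a description over the 30 libraries, the genes with the pattern most like each member by Spearman's rho among the 13663 tested genes were as follows. Egfr was most like Npr2 (0.87) and Pcdhb10 (0.85), with Nrg1 also among the 5 most alike, and Nrg1 was most like Ehd3 (0.90) and Notch3 (0.87). Ehd3 was also second for Erbb2 (0.82), after Pip5k1a (0.83), and Map2 was among the 5 most alike for both Erbb2 (0.80) and Nrg1 (0.85). Erbb3 was most like Ddx6 (0.89) and C77080 (0.85), and Erbb4 most like Etv1 (0.91) and Tspan13 (0.89). For the ligands the values were lower, with Hbegf most like Actn1 (0.80) and Inhba (0.77), Tgfa most like Dhh (0.79) and Tox2 (0.79), Btc most like B3gntl1 (0.78) and Areg most like Plekha3 (0.62).

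The rest of the pathway was read from 5 lists of 70 genes, and 0 of their tested genes passed an adjusted p of 0.05 in any comparison by edgeR. For the KCL-HO-1i effect averaged over 3 backgrounds, where 23.0% of all genes had an unadjusted p under 0.05, that was so for 1 of 4 tested further ligands (higher), 2 of 8 shedding genes (both higher), 2 of 28 adaptors and kinases, 4 of 14 feedback inhibitors (1 higher, 3 lower) and 1 of 15 induced transcription factors and targets (lower). Nrg4, a neuregulin that binds Erbb4 and is made by fat, was 2.49 higher on the log2 scale (SE 0.91, adjusted p = 0.105 by edgeR). In that comparison all 7 adipocyte, all 7 skeletal muscle, all 8 fibroblast and 6 of 7 macrophage genes were also higher at an unadjusted p under 0.05. The part of these cell types in the Nrg4 value was not tested. Epgn was -0.94 (SE 0.47) and Egf, the founding ligand, -0.68 (SE 0.37).

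Among the shedding genes Adam12 was 1.08 higher (SE 0.32, adjusted p = 0.0618 by edgeR) and Adam15 0.32 higher (SE 0.11, adjusted p = 0.0995 by edgeR), while Adam8 was 0.59 (SE 0.32). Of the feedback inhibitors, Lrig1, which directs receptors to degradation, was 0.31 higher (SE 0.10, adjusted p = 0.0829 by edgeR), and Errfi1, which blocks the kinase domain, was -0.37 (SE 0.13, adjusted p = 0.0872 by edgeR), as was Dusp5, a phosphatase of the mitogen-activated kinases, at -0.33 (SE 0.13). Of the adaptors and kinases Plcg1 was 0.19 (SE 0.08) and Pik3ca 0.13 (SE 0.07), and of the induced genes Etv5 was -0.39 (SE 0.19), Phlda1 -0.28 (SE 0.14) and Myc -0.25 (SE 0.13). In KCL-HO-1i/gemcitabine against vehicle 4 of the 14 feedback inhibitors were lower at an unadjusted p under 0.05, with a list median of -0.21, against a median of 0.02 and 19.8% over all genes.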

How the data were processed

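RNA was sequenced from mammary tumours with a directional library kit per the labels, 30 libraries in 6 groups taken from the labels. The authors aligned reads with STAR 2.7.9a to mm10, quantified them with Salmon 1.9.0 and ran FastQC 0.11.9, per the submitters' processing notes. The deposited values are expected counts, that is, estimated numbers of reads not yet normalised, and were rounded to whole numbers. The study's methods call them TPM counts, but library totals differ, so they were not treated as TPM. The members and all lists were chosen with earlier results of these data known.

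Genes were kept by filterByExpr (minimum count 10) and fitted with edgeR 4.0.16 in R 4.3.3 (TMM, robust quasi-likelihood, 6 group means, all 30 libraries). Benjamini-Hochberg adjustment covered all 13663 tested genes, and p-values are two-sided. The SE given with a fold change was derived from the test, as its absolute log2 value divided by the square root of the quasi-likelihood F statistic. The biological coefficient of variation common to all genes was 0.401. The fit was tested on simulated data. CPM used effective library sizes, and log2 CPM a prior count of 2. Correlations were tested with 100000 permutations of the libraries. All members were named. Pathway genes were named where their adjusted p was under 0.05, otherwise the 3 of a list with the smallest p in the average KCL-HO-1i comparison, and 5 genes were listed as most alike per member. 1 pathway gene so named is not reported here. Alternatives were RLE size factors, DESeq2 1.42.0, limma-voom (limma 3.58.1), a mean count minimum of 50, no filter, a replicate block, the number in the mouse code of the labels (13 values, meaning not stated), only the groups compared, and each library left out. Libraries of a group were not duplicates (lowest chi-square per gene 20.7 over 60 pairs). Intervals and floors cover counting error only.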

Additional observations from a re-analysis of the deposited data

Results flagged for a closer look

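Within each group of 5, the highest or lowest library was compared with the rest by Dixon's ratio for the 9 tested members, in 54 combinations of a gene and a group. For normally distributed values chance flags about 1 in 20. The ratio was taken on CPM, not on a log scale, and these need not follow that distribution. The 8 that were flagged can thus not be read against that share. Erbb2 in KCL-HO-1i/5-FU replicate 1 was at 241 CPM, where the other 4 libraries ran from 80.1 to 121 CPM. Erbb3 in KCL-HO-1i/5-FU replicate 3 was at 77.3 CPM, below a range of 153 to 181 CPM. Areg in vehicle replicate 3 was at 5.28 CPM, above 0.945 to 2.07 CPM. Hbegf in KCL-HO-1i/gemcitabine replicate 3 was at 13.1 CPM, above 4.73 to 5.55 CPM. Tgfa in 5-FU replicate 1 was at 31.7 CPM, above 10.5 to 16.3 CPM. Nrg1 was high in 3 groups, at 30.5 CPM in 5-FU replicate 5 (others 0 to 7.79), at 7.42 CPM in KCL-HO-1i replicate 5 (others 1.64 to 2.94) and at 9.79 CPM in KCL-HO-1i/5-FU replicate 4 (others 3.44 to 4.78). Their causes were not tested.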

How the results depend on the processing

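In KCL-HO-1i/gemcitabine against vehicle the number of members past an adjusted p of 0.05 was 0 in the main analysis and 2 with limma-voom and quality weights (Erbb3 -0.57, adjusted p = 0.0205, and Tgfa -1.07, adjusted p = 0.0400), and it ran from 0 to 1 when each of the 30 libraries was left out in turn. The 1 was Erbb3 without KCL-HO-1i/gemcitabine replicate 4 (-0.88, adjusted p = 0.0489 by edgeR). Over all 39 alternatives the adjusted p of Erbb3 in that comparison ran from 0.0205 to 1 and that of Tgfa from 0.0400 to 1. Erbb2 in KCL-HO-1i/5-FU against 5-FU turned from 0.51 to -0.0091 once the mouse code was a covariate, and the cause was not tested. The codes were unevenly spread over the groups. Code 76 occurred only with 5-FU or gemcitabine alone, and codes 65, 70, 71, 72 and 73 only in groups with KCL-HO-1i. Mouse code and treatment can thus be told apart only in part. In the other comparisons that were rerun 0 members passed under any alternative. The 2 interactions were not rerun. Signs of member fold changes differed from the main fit in 90 of 2160 values with a library left out, 31 of 72 with the mouse code, 17 of 72 with limma-voom, 6 of 72 without the 2 libraries rich in adipocyte and muscle RNA, 4 of 72 with the replicate block, 2 of 72 without a filter, 1 of 72 with RLE size factors and 1 of 72 with DESeq2, and in none of those with a mean of at least 50 counts or only the groups compared.

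Replicate numbers are only names here. Same-numbered libraries had residuals that correlated by 0.00284 on average (75 pairs, -0.584 to 0.480), and 5 of 30 libraries correlated best with their own number. With the replicate block 0 members passed in every comparison that was rerun. Over all genes the count past the threshold in the average KCL-HO-1i effect was 8 with edgeR, 1139 with DESeq2 and 267 with limma-voom, 12 with the block and 0 with the mouse code. With 1 library left out it ran from 3 to 19 for 23 libraries and from 465 to 1130 for the other 7, namely gemcitabine replicate 5 (1130), KCL-HO-1i/5-FU replicates 4 (840) and 5 (514), 5-FU replicate 5 (573), KCL-HO-1i replicates 5 (478) and 1 (467) and KCL-HO-1i/gemcitabine replicate 4 (465). In the test of any difference it was 89, and 6 to 231 with 1 library left out. In KCL-HO-1i/gemcitabine against vehicle it was 0, 883 and 1322 by those tools. Depth limited Ereg and the libraries with few Areg, Erbb4 and Nrg1 reads.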
